A study of Mus musculus with 6 samples.

Results

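Transcripts that mark oligodendrocytes and myelin were examined in cells selected as microglia from mouse brain, to determine how much of this signal the preparations held and whether it differed with PGC-1α overexpression. The list held 32 genes of the 23462 genes that the array named by a single symbol, chosen by name as known oligodendrocyte and myelin genes. All probes on the array whose transcript accession belonged to a listed gene were collected, and the probe with the highest mean signal stood for each gene. All 32 genes had a probe.

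The mice were male, 10 weeks of age and on a C57BL/6 background. PGC-1αf/f animals have a PGC-1α allele between loxP sites, on which Cre recombinase acts, and a gene for eGFP. In mPGC-1α mice this allele was combined with Cx3cr1-CreER, a recombinase in the Cx3cr1 locus that acts after tamoxifen (TAM), and TAM was given over consecutive days and followed by an interval before use. Cx3cr1 is active in microglia and in other macrophages. The study describes littermates of both genotypes after TAM, without saying so of the cells on these arrays. Cells were freed of myelin and debris on Percoll and selected through the microglial receptor P2RY12 with magnetic beads (n = 3 arrays per group). Nothing in the labels says that an array held cells of more than 1 mouse, and p-values here measure the spread between these samples.

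Oligodendrocytes wrap axons of the central nervous system in myelin, a stack of membrane that is rich in galactolipids and in a small set of structural proteins. They arise from progenitors that carry the receptor PDGFRα and the proteoglycan NG2. SOX10, OLIG1, OLIG2, NKX6-2 and MYRF are transcription factors that control their differentiation and the myelin genes. Microglia do not form myelin, though they can take up its debris.

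Each array held 59305 spots outside the control spots, of which 27025 to 30272 were well above background and 0 were saturated. The array of PGC-1αf/f replicate 3 stood apart: its mean correlation with the other arrays was 0.928, against 0.962 to 0.972 for each of the others. All arrays lay on 1 slide, with PGC-1αf/f in row 1 and mPGC-1α in row 2, so slide row and group cannot be told apart. All 16 microglial markers were well above background on every array. Ppargc1a, which encodes PGC-1α, read 0.19, -0.44 and -1.21 in PGC-1αf/f and 0.57, 0.28 and 0.077 in mPGC-1α microglia, as log2 signal minus the 75th percentile of the array. The difference was 0.80 (SE 0.35, limma adjusted p = 0.306), or 0.44 without PGC-1αf/f replicate 3. A second probe gave 0.59 (limma adjusted p = 0.445), or 0.26 without that array. The groups overlapped, so the brighter probe gives the labels a higher mean in mPGC-1α and no separation. Levels below are on the same scale, and every difference is mPGC-1α minus PGC-1αf/f.

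Upstream sequences were inspected because SOX10 and MYRF, whose own transcripts are described below, bind near myelin genes. RefSeq promoters (GRCm38.p6) were found for 22 of the 32 genes, 26 in all. The letters ACAAAG, the core of a SOX site, stood on either strand within 250 bases upstream of the start in 7 of these 26 and in 16.5% of all 32851 promoters. The MYRF letters CTGGCAC stood in 3 of 26 and in 4.19% of all promoters. CAGCTG, an E-box of the kind that OLIG factors bind, stood in 1 of 26 and in 4271 of the 32851 promoters. Opalin and Mog are shown because their measured signals differed most among the sheath and membrane genes, and Mag and Cnp because they were the genes whose promoters held both SOX and MYRF letters. Matched letters are in capitals and all sequences read 5′ to 3′ toward the gene.
Opalin, chr19:41077114-41077363, minus strand: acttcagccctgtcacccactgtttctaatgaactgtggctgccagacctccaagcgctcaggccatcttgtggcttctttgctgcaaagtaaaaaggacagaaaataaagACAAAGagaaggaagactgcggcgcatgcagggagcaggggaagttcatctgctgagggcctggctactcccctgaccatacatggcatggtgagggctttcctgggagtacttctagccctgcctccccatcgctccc
Mog, chr17:37023399-37023648, minus strand: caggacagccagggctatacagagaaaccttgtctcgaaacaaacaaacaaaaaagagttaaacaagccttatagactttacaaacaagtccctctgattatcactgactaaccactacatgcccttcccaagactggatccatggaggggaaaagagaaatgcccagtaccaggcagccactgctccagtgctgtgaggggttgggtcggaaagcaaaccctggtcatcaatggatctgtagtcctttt
Mag, chr7:30914923-30915172, minus strand: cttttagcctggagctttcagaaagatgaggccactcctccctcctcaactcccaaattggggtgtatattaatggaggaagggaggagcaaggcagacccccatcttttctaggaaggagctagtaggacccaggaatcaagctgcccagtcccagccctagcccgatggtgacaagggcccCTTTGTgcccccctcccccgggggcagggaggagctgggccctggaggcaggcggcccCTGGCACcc
Cnp, chr11:100574689-100574908, plus strand: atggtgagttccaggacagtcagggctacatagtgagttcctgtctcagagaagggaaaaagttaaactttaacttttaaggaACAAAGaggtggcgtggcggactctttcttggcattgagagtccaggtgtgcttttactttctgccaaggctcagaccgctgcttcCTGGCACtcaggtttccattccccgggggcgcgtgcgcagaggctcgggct
The Opalin window holds the SOX letters alone, and the Mog window holds none of the letters searched. In Mag and Cnp both kinds of letters stand on the printed window, the SOX letters farther from the start. The Cnp window ends where another transcript of the gene begins. Matches are descriptions of letters, and binding was not measured.

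The preparations held measurable oligodendrocyte signal on every array. Of the 32 transcripts, 23 were well above background on all 6 arrays, among them Mbp, Mag, Mobp, Cldn11 and Olig1. The probe for Myrf did not pass this mark on any array. Testing required a signal well above background on every array of 1 group or both, which held for 27 of the 32.

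No oligodendrocyte transcript passed an adjusted p of 0.05 in limma, where 0.0535% of 13085 genes did, and the smallest adjusted p was 0.118, for Mog, which had no mPGC-1α array well above background. At an unadjusted limma p under 0.05, 10 of 27 were lower in mPGC-1α microglia against a background of 5.75% of genes, and 1, Pdgfra, was higher against 7.83%. Groups did not overlap for 12 of 26 tested transcripts with values on every array, lower in mPGC-1α (10.7% of 11861 genes), and for 1 of 26 higher (12.4% of genes). The median difference over the 27 was -0.53, with 18 below 0 and 9 above, against 0.020 over all genes tested. In bulk RNA of this kind, fewer cells or fragments of a type and less RNA per cell cannot be told apart.

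These counts rest in part on how transcripts entered the test. Mog, Opalin, Gpr37 and Gpr17 were well above background on all 3 PGC-1αf/f arrays but on 0, 2, 2 and 2 mPGC-1α arrays, so they entered through the group in which they were high. Over the 23 transcripts that were well above background everywhere, 8 were lower and 1 higher at the unadjusted threshold, against 5.97% and 7.26% of genes under that filter, and their median was -0.19. Over all 32 without any filter the median was -0.54, with 22 below 0 and 10 above. Without PGC-1αf/f replicate 3, 8 were lower and 1 higher at that threshold, against 3.48% and 6.07% of genes, and the median of the 27 was -0.30.

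**Figure D1:**
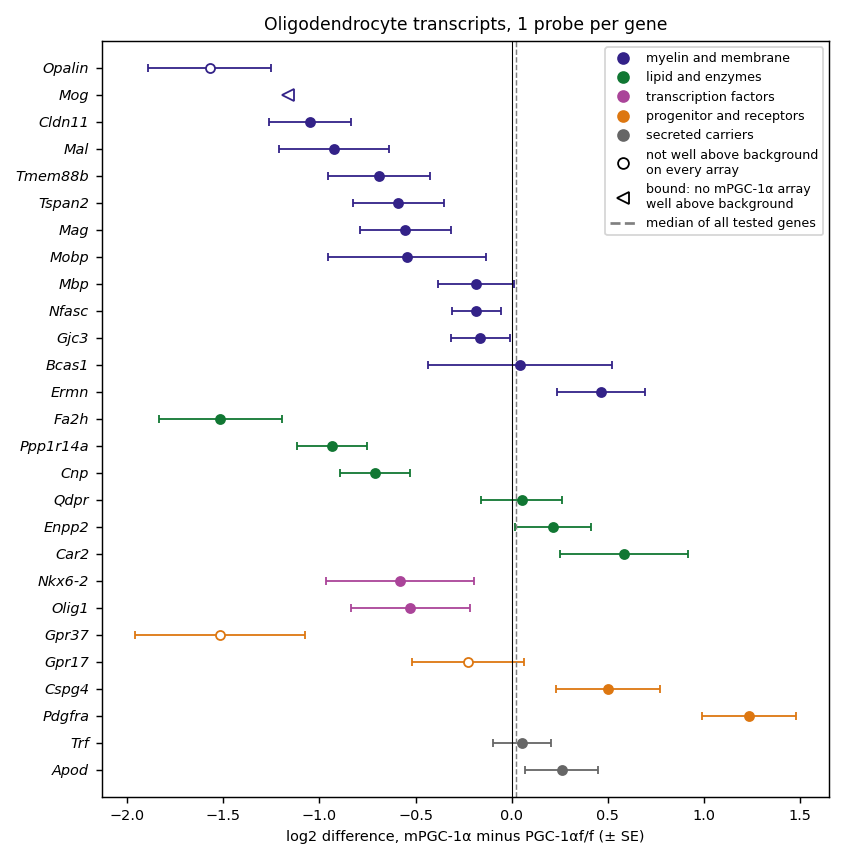
Log2 difference (mPGC-1α minus PGC-1αf/f, horizontal axis) of the 27 tested transcripts, ordered within 5 roles, with bars of ± 1 SE from limma (n = 3 arrays per group, n = 2 for Car2). Opalin lies at -1.57, Fa2h and Gpr37 at -1.52 and Pdgfra at 1.24, the triangle of Mog stands at its bound of 2.24-fold, open points were not well above background on every array, and the dashed line marks the median of all tested genes at 0.020.

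Proteins of the myelin sheath and the oligodendrocyte membrane formed the largest group, with 13 genes. All 13 were tested, 11 were below 0 and 6 were lower at an unadjusted p under 0.05, against 47.1% and 5.75% of genes. Of the 6, Mog and Opalin entered through PGC-1αf/f, where they were high, and the rest were Mal, Cldn11, Tspan2 and Tmem88b. With the filter on all 6 arrays those named last and Mag were lower at that threshold. The median difference of the 13, Mog and Opalin included, was -0.55, or -0.33 without PGC-1αf/f replicate 3. Opalin, a transmembrane glycoprotein of oligodendrocytes (probe A_52_P624415), read -2.64, -2.09 and -1.28 in PGC-1αf/f and -3.57, -3.59 and -3.55 in mPGC-1α microglia. The mPGC-1α arrays lay close together, below every PGC-1αf/f array, though only 2 of them were well above background. The means were -2.00 ± 0.68 (SD, n = 3) and -3.57 ± 0.017 (SD, n = 3). Measured Opalin signals differed by -1.57 (SE 0.32), with an adjusted p in limma of 0.128.

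Mog encodes a glycoprotein on the outer surface of myelin (probe A_66_P123582). It read -2.72, -2.87 and -1.89 in PGC-1αf/f and -3.75, -4.01 and -3.89 in mPGC-1α, where no array was well above background. Against the lowest signal that counted as above background, Mog was at least 2.24-fold higher in PGC-1αf/f, and its adjusted p in limma was 0.118. A second Mog probe, untested, was well above background on 2 PGC-1αf/f arrays and on 0 mPGC-1α arrays. Against the same mark its PGC-1αf/f mean was 1.62-fold higher, but PGC-1αf/f replicate 1 lay below that mark, so this is no lower bound.

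Cldn11, the claudin of myelin tight junctions (probe A_51_P409452), was measured well above background throughout. Its levels were 0.16, 0.35 and 0.85 in PGC-1αf/f and -0.49, -0.47 and -0.83 in mPGC-1α. All mPGC-1α arrays lay below all PGC-1αf/f arrays, with means of 0.46 ± 0.35 (SD, n = 3) and -0.60 ± 0.20 (SD, n = 3). This 2.07-fold difference (-1.05, SE 0.21) had a limma adjusted p of 0.127. Mal, a proteolipid of myelin membrane domains (probe A_55_P2113160), read 0.94, 1.03 and 2.01 in PGC-1αf/f and 0.37, 0.38 and 0.46 in mPGC-1α. The highest value again came from PGC-1αf/f replicate 3, and the difference of -0.92 (SE 0.28, limma adjusted p = 0.216) became -0.58 without that array, a move of more than 1.5 times.

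Mag, an adhesion molecule of the inner myelin layer, read 0.74, 0.93 and 1.61 in PGC-1αf/f and 0.43, 0.57 and 0.63 in mPGC-1α. Its groups did not overlap, but the difference of -0.55 (SE 0.23, limma adjusted p = 0.301) was -0.30 without PGC-1αf/f replicate 3. The tetraspanin Tspan2 read -0.21, -0.38 and 0.48 against -0.57, -0.54 and -0.77. Here too replicate 3 was the highest PGC-1αf/f array, and the difference was -0.59 (SE 0.24, limma adjusted p = 0.286), or -0.33 without it. Tmem88b, a transmembrane protein, read -0.45, -0.21 and 0.48 against -0.48, -1.02 and -0.75. The lowest PGC-1αf/f array and the highest mPGC-1α array of Tmem88b nearly met, and the difference was -0.69 (SE 0.27, limma adjusted p = 0.276), or -0.42 without PGC-1αf/f replicate 3.

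Other structural transcripts of the sheath did not share this separation. Mbp, myelin basic protein of compact myelin, read 2.25, 2.01 and 1.70 against 1.94, 1.94 and 1.52 by its brightest probe. The groups overlapped, with a difference of -0.19 (SE 0.20, limma adjusted p = 0.653) that was -0.052 without PGC-1αf/f replicate 1, -0.33 without PGC-1αf/f replicate 3 and -0.044 without mPGC-1α replicate 3. The other Mbp probes gave 0.21 and 0.15, with group SDs of 0.86 to 1.26, so the direction for Mbp depended on the probe. Mobp, a basic protein of compact myelin, read -1.35, -1.03 and 0.038 against -0.74, -1.42 and -1.81. Its difference of -0.54 (SE 0.41, limma adjusted p = 0.518) was -0.14 without PGC-1αf/f replicate 3, the array on which it was highest. Ermn, ermin of the oligodendrocyte cytoskeleton, ranged from -0.25 to 0.33 in PGC-1αf/f and from 0.28 to 0.88 in mPGC-1α, and its difference of 0.46 was the highest of the sheath and membrane group, or 0.27 without mPGC-1α replicate 3.

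Nfasc, neurofascin at the nodes and paranodes of axons, had probes that disagreed. Its brightest probe read -2.12, -2.20 and -2.20 against -2.33, -2.27 and -2.47, a difference of -0.18 (SE 0.13, limma adjusted p = 0.474). A second probe read -2.35, -2.61 and -2.58 against -2.27, -2.21 and -2.21, a difference of 0.29 (SE 0.13, limma adjusted p = 0.327). On each probe the groups did not overlap, in opposite directions. Gjc3, a connexin of myelinating glia, differed by -0.16 (-0.26 to -0.079 over the arrays left out), and Bcas1, found in early myelinating oligodendrocytes, by 0.044 with a wide SE of 0.48.

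**Figure D2:**
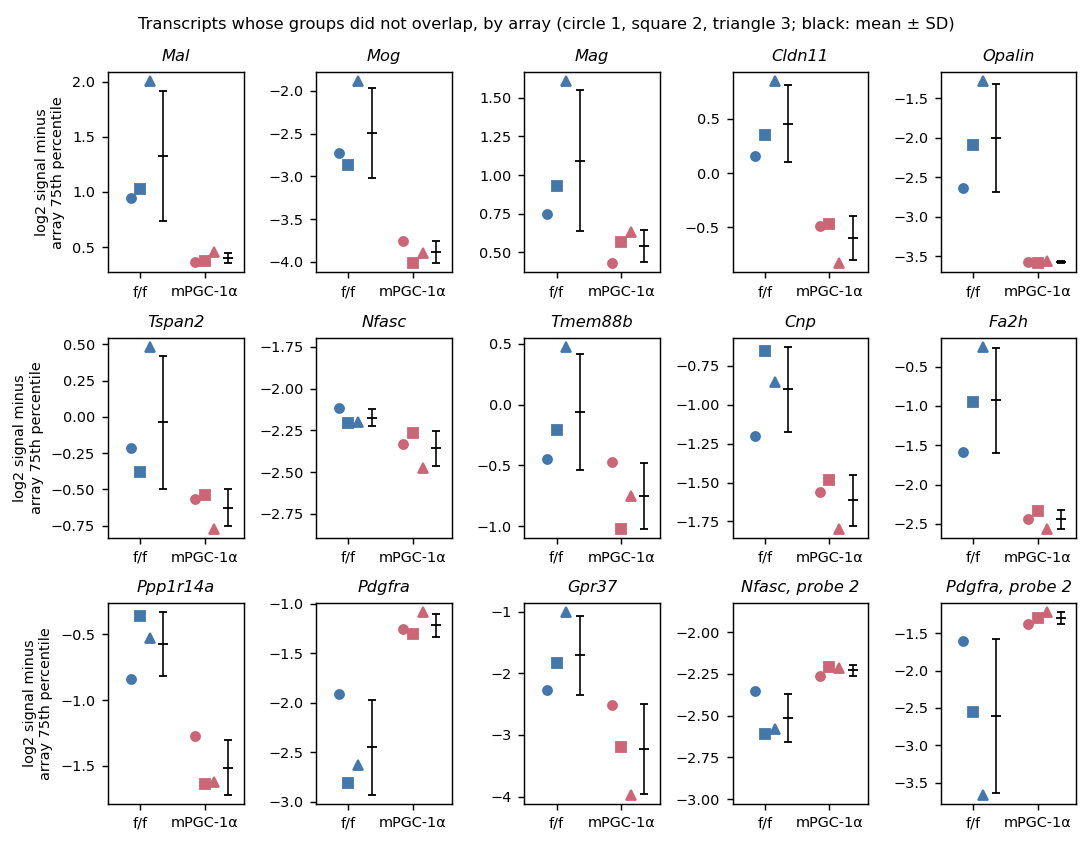
Level on each array (log2 signal minus the 75th percentile of the array, separate scales) of the 13 tested transcripts whose groups did not overlap, and of second probes of Nfasc and Pdgfra. Black bars are mean ± SD (n = 3); PGC-1αf/f replicate 3, a triangle, is the highest array for Mal, Mog, Mag, Cldn11, Opalin, Tspan2, Tmem88b, Fa2h and Gpr37, and Pdgfra is the transcript that was higher in mPGC-1α on both probes.

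The enzyme group was split. Of 8 genes, 6 were tested, with 3 below 0 and 3 above, and the 3 below 0 were each at an unadjusted p under 0.05, against 47.1% of genes below 0 and 5.75% lower at that threshold. Fa2h, which hydroxylates the fatty acids of myelin galactolipids (probe A_55_P2796695), read -1.59, -0.95 and -0.24 in PGC-1αf/f and -2.44, -2.33 and -2.57 in mPGC-1α. The means were -0.93 ± 0.67 (SD, n = 3) and -2.45 ± 0.12 (SD, n = 3), and all 6 arrays were well above background. Fa2h differed by -1.52 (SE 0.32), which is 2.86-fold (limma adjusted p = 0.130). Ppp1r14a, an inhibitor of myosin phosphatase (probe A_51_P432460), read -0.84, -0.36 and -0.53 against -1.28, -1.64 and -1.62. Its difference of -0.94 (SE 0.18, limma adjusted p = 0.119) was nearly the same without PGC-1αf/f replicate 3, at -0.91.

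Cnp, a cyclic nucleotide phosphodiesterase of non-compact myelin (probe A_51_P232901), read -1.20, -0.66 and -0.85 in PGC-1αf/f and -1.56, -1.48 and -1.80 in mPGC-1α. PGC-1αf/f replicate 3 was not the highest array for Cnp or Ppp1r14a. The Cnp difference was -0.71 (SE 0.18, limma adjusted p = 0.171), and -0.68 without that array. Ugt8a, the galactosyltransferase that makes galactosylceramide, was well above background on 2 PGC-1αf/f arrays and on 0 mPGC-1α arrays and was not tested. It read -3.23, -2.91 and -1.86 against -3.84, -4.42 and -3.91. Against the lowest signal above background its PGC-1αf/f mean was 1.99-fold higher. PGC-1αf/f replicate 1 lay below that mark, so this is no lower bound. Aspa, which cleaves N-acetylaspartate, was well above background on 2 and 1 arrays of the groups, its values overlapped, and it was not tested.

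The remaining enzymes were bright and showed no separation of the groups. Enpp2, the lysophospholipase autotaxin, which the choroid plexus also makes, read 5.07, 4.73 and 4.42 against 5.11, 4.78 and 4.98, with a difference of 0.21 (SE 0.20, limma adjusted p = 0.594). Without PGC-1αf/f replicate 1, PGC-1αf/f replicate 3 or mPGC-1α replicate 1 the Enpp2 difference was 0.38, 0.055 and 0.14. Qdpr, dihydropteridine reductase, differed by 0.051 (SE 0.21), and its other probes by -0.070 and 0.060. Car2, a carbonic anhydrase, had spots flagged as outliers on replicate 1 of each group and was fitted on 4 arrays. It read 2.04 and 1.63 against 2.01 and 2.82, a difference of 0.58 (SE 0.33, limma adjusted p = 0.423) that came from replicate 3 of each group, since replicates 2 differed by -0.025.

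Of the 5 transcription factors of the lineage, Olig1 and Nkx6-2 were well above background on all 6 arrays and were tested. Olig1 read -1.07, -0.84 and -0.47 in PGC-1αf/f and -0.68, -1.81 and -1.47 in mPGC-1α, a difference of -0.53 (SE 0.31, limma adjusted p = 0.412). Nkx6-2 read -1.72, -1.23 and -0.40 against -1.10, -2.01 and -1.98, a difference of -0.58 (SE 0.39, limma adjusted p = 0.462). For both genes mPGC-1α replicate 1 lay above PGC-1αf/f replicate 1, and the groups overlapped. Nkx6-2 was -0.22 without PGC-1αf/f replicate 3, and Olig1 was -0.28 without mPGC-1α replicate 2.

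Sox10, the lineage factor that binds the SOX letters shown above, was well above background on 2 PGC-1αf/f arrays and on 0 mPGC-1α arrays. It read -3.53, -2.82 and -2.00 against -3.59, -3.87 and -4.43, and was not tested. Against the lowest signal above background its PGC-1αf/f mean was 1.84-fold higher. PGC-1αf/f replicate 1 lay below that mark, so this is no lower bound, and replicates 1 differed by -0.067. Olig2 was likewise well above background on 2 and 0 arrays, with overlapping values of -4.77 to -3.12 and -5.67 to -4.57. Detection on at least 2 PGC-1αf/f arrays and on 0 mPGC-1α arrays held for 4 of the 32 transcripts, Mog, Ugt8a, Sox10 and Olig2, and for 0.264% of 23462 genes. The reverse held for 0 of the 32 and for 0.861% of genes.

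Progenitor genes and receptors, 4 in all, had differences of either sign. Pdgfra, the receptor for platelet-derived growth factor on oligodendrocyte progenitors and on fibroblasts (probe A_55_P2735715), read -1.91, -2.82 and -2.63 in PGC-1αf/f and -1.26, -1.31 and -1.09 in mPGC-1α. All mPGC-1α arrays were above all PGC-1αf/f arrays, with means of -2.45 ± 0.48 (SD, n = 3) and -1.22 ± 0.12 (SD, n = 3). Pdgfra differed by 1.24 (SE 0.24), or 2.36-fold (limma adjusted p = 0.122), and a second probe gave 1.31 (SE 0.47, limma adjusted p = 0.253). The second probe read -1.61, -2.56 and -3.66 in PGC-1αf/f, lowest on replicate 3, and differed by 0.23 and 1.26 within slide columns 1 and 2. Cspg4, the NG2 proteoglycan of progenitors and pericytes, ranged from -4.03 to -2.97 in PGC-1αf/f and from -3.11 to -2.83 in mPGC-1α, a difference of 0.50 (SE 0.27, limma adjusted p = 0.378). The groups of Cspg4 overlapped, and without PGC-1αf/f replicate 3, its lowest array, the difference was 0.21.

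Gpr37, a receptor of differentiating and mature oligodendrocytes (probe A_52_P62121), read -2.27, -1.84 and -1.01 against -2.51, -3.19 and -3.97. The highest mPGC-1α array lay just under the lowest PGC-1αf/f array, and the difference was -1.52 (SE 0.44, limma adjusted p = 0.201). Within slide columns Gpr37 differed by -0.23 and -1.36, and with the column as a fixed block or without both arrays numbered 3 by -0.80. Gpr17, which marks committed precursors, ranged from -3.45 to -3.10 in PGC-1αf/f and from -4.10 to -2.94 in mPGC-1α, and its difference was -0.23 (SE 0.29, limma adjusted p = 0.706).

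The secreted carriers were bright on all arrays. Trf, transferrin, which oligodendrocytes and the choroid plexus make, read 4.65, 4.30 and 4.25 against 4.45, 4.40 and 4.51. Its difference of 0.055 (SE 0.15, limma adjusted p = 0.874) was within the spread of the arrays. Apod, apolipoprotein D, read 2.42, 2.52 and 2.46 against 2.36, 2.80 and 3.02, a difference of 0.26 (SE 0.19, limma adjusted p = 0.499), with mPGC-1α replicate 1 below every PGC-1αf/f array. It was 0.44 without that array and 0.11 without mPGC-1α replicate 3.

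The difference was also read within the slide columns that held an array of each group. Columns 1 and 2 held replicates 1 and 2 of both groups. In 15 of the 26 tested transcripts with values on every array, mPGC-1α was the lower array in both columns (57.7%), against 29.5% of 11861 genes. Among the sheath and membrane genes this held for 10 of 13. The column differences were -0.85 and -1.38 for Fa2h, and -0.65 and -0.82 for Cldn11. Pdgfra (0.65 and 1.51) and Enpp2 were higher in both columns. In the other 9 the columns had opposite signs, Olig1 and Nkx6-2 among them. With the column as a fixed block the median of the 27 was -0.19. Being lower in both columns was not particular to oligodendrocyte genes. It held for 9 of 10 microglial markers (90%) and 3 of 4 erythroid markers (75%), and for 0 to 33.3% in the remaining lists of other cells. Of the microglial markers, 13 of 16 were below 0 (81.2%), against 66.7% of the 27.

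Further oligodendrocyte genes, a list of 48 with none of the above, were read in the same fit. Of these 48, 32 were tested, 0 passed the adjusted limma threshold, 11 were lower and 2 higher at an unadjusted p under 0.05 against 5.75% and 7.83% of genes, and the median difference was -0.23, with 22 below 0 and 10 above. Gjb1, a connexin of myelin, was lowest at -1.48 (SE 0.23, limma adjusted p = 0.0863). It read -1.37, -1.03 and -0.49 in PGC-1αf/f and -2.43, -2.45 and -2.46 in mPGC-1α. Tubb4a, a tubulin of oligodendrocytes, read -2.19, -1.72 and -1.33 against -2.53, -2.80 and -3.65, a difference of -1.25 (SE 0.34, limma adjusted p = 0.187).

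Both Gjb1 and Tubb4a had groups that did not overlap, and Tubb4a was -0.71 with the slide column as a fixed block. Tubb4a, Myt1 and Lpar1 were well above background on all 3 PGC-1αf/f arrays but on 2, 1 and 2 mPGC-1α arrays, so they entered through that group. Over the 29 tested with the filter on all 6 arrays, 9 were lower and 2 higher at an unadjusted p under 0.05, against 5.97% and 7.26% of genes. At the other end, Vcan, the proteoglycan versican, read -1.99, -1.42 and -3.54 against -1.44, -0.93 and -1.82, a difference of 0.92 (SE 0.53, limma adjusted p = 0.408). Its lowest value was on PGC-1αf/f replicate 3, and without that array the difference was 0.30. Elovl7, a fatty acid elongase, read 1.82, 1.31 and 0.77 against 2.00, 1.97 and 2.17, a difference of 0.75 (SE 0.26, limma adjusted p = 0.251), or 0.48 without that array. Moreover, Hapln2, Pllp and Hhip were well above background on 2 PGC-1αf/f arrays and on 0 mPGC-1α arrays.

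Markers of other cells also differed between these arrays. The 11 sheath and membrane genes that were well above background everywhere had a mean level of -0.084, -0.14 and 0.20 in PGC-1αf/f and of -0.26, -0.48 and -0.47 in mPGC-1α. PGC-1αf/f replicate 3 was thus the array with the highest sheath level, and 13 of the 26 tested transcripts with values on every array were highest on it, against 26.2% of genes. The same array had the lowest level of endothelial markers, -1.79 against -0.38 to 0.42 on the others, and of blood leukocyte markers, -0.89 against 0.67 to 1.44. Endothelial markers had a median difference of 0.74 and leukocyte markers of 0.85, or 0.11 and 0.24 without PGC-1αf/f replicate 3, with 0 of 7 and 0 of 9 tested genes past the adjusted limma threshold and 0 at an unadjusted p under 0.05. Summed over 9 endothelial markers, the signal was 13.5, 14.1 and 3.48 times the 75th percentile of the array in PGC-1αf/f and 14.0 to 18.1 times in mPGC-1α. Over 13 leukocyte markers it was 64.7, 64.3 and 14.7 times, and 68.4 to 82.3 times in mPGC-1α. The endothelial adhesion molecule Pecam1 was not tested and went the other way, well above background on 2 PGC-1αf/f arrays and on 0 mPGC-1α arrays. Against the lowest signal above background its PGC-1αf/f mean was 1.22-fold higher. PGC-1αf/f replicate 1 lay below that mark, so this is no lower bound. The part of these cells in the oligodendrocyte differences was not tested.

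Choroid plexus markers were well above background on every array, 8 of 8, including transthyretin (Ttr), at 5.06 ± 0.29 (SD, n = 3) and 5.13 ± 0.13 (SD, n = 3). Their summed signal was 48.7 to 93.5 times the 75th percentile in PGC-1αf/f and 79.4 to 92.8 times in mPGC-1α, beside Enpp2 and Trf, which that tissue shares. For fibroblasts, which carry Pdgfra, Dcn had a difference of 1.39 (SE 0.39, limma adjusted p = 0.192) and Col1a2 of 0.55 (SE 0.29, limma adjusted p = 0.372). The groups of Col1a2 overlapped, and it read 0.86, 0.47 and -0.19 in PGC-1αf/f, lowest on replicate 3. Col1a1 was well above background on 2 arrays of each group, and Lum and Col3a1 on none. Over 9 mural and fibroblast markers the summed signal was 2.06 to 4.54 times the 75th percentile in PGC-1αf/f and 3.95 to 6.40 times in mPGC-1α. Their part in the Pdgfra difference was not tested. Of Schwann cell markers, which would accompany myelin of peripheral nerve, Pmp2, Dhh and Drp2 stayed below the background mark on all 6 arrays, and Prx, Egr2 and Ncmap were above it on all 6. The median difference was -0.16 for microglial markers, 0.036 for astrocytes, 0.14 for neurons, 0.29 for border macrophages, 0.12 for erythroid cells, 0.22 for Schwann cells, 0.58 for choroid plexus and 0.51 for mural cells and fibroblasts. Without PGC-1αf/f replicate 3 the choroid plexus median was 0.27 and that of mural cells and fibroblasts 0.058, and those of astrocytes, neurons, erythroid and Schwann cells were below 0. In these lists 0 genes passed the adjusted limma threshold, and at an unadjusted p under 0.05 there were 1 microglial marker lower, 2 choroid plexus markers higher and Dcn higher. The microglial marker was Cx3cr1, at -0.51 (SE 0.14, limma adjusted p = 0.194). As described, mPGC-1α mice alone carried the recombinase in that locus. The groups thus differ in this allele as well as in PGC-1α overexpression, and the part of each was not tested.

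**Figure D3:**
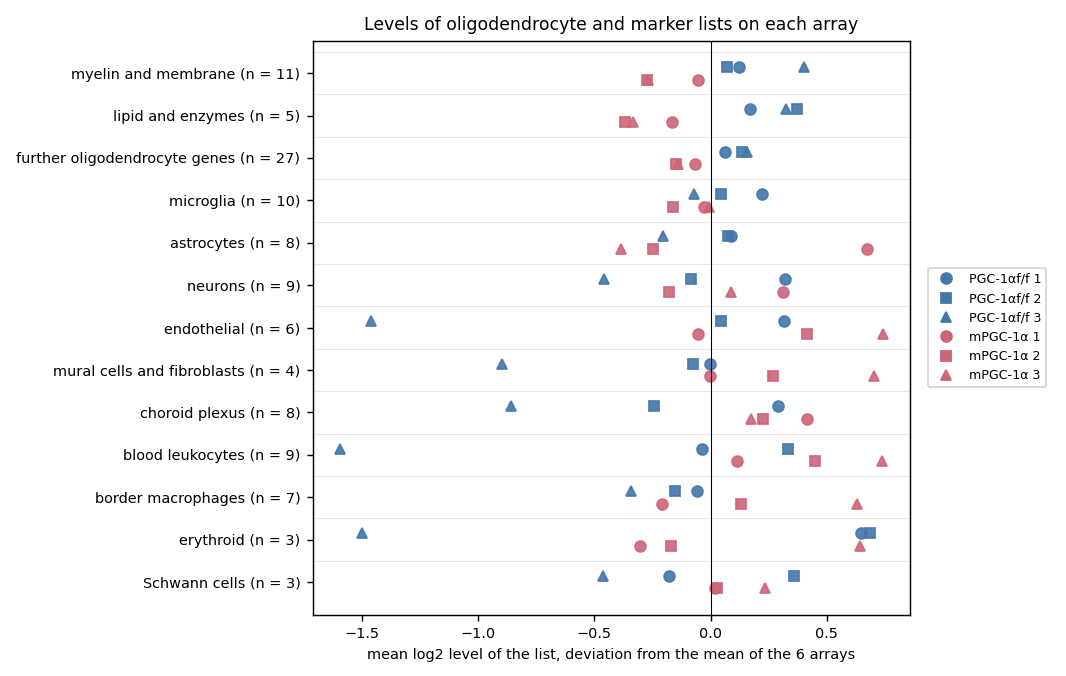
Mean log2 level of each list on each array, as the deviation from the mean of the 6 arrays (horizontal axis), over the genes of the list that were well above background on every array (n in the labels). The sheath, enzyme and further oligodendrocyte lists place all PGC-1αf/f arrays above all mPGC-1α arrays, and PGC-1αf/f replicate 3 lies far to the left for endothelial, mural, choroid plexus, leukocyte and erythroid markers.

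The summed signal of all oligodendrocyte transcripts overlapped between the groups. Over the 31 with values on every array, the highest sum was 90.8 times the 75th percentile of the array in PGC-1αf/f and 85.6 times in mPGC-1α, and the lowest of all 6 was 74.8 times, in mPGC-1α. For the 13 sheath and membrane genes the sums were 15.7 to 19.0 and 12.1 to 14.4 times, which did not overlap. The mean log2 level of the 22 transcripts that were well above background throughout and had values on every array was 0.11 to 0.29 in PGC-1αf/f and -0.21 to 0.016 in mPGC-1α, and did not overlap either.

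Directions held for most transcripts when the processing was changed. Across 19 alternative settings, 19 of the 27 tested transcripts kept the sign of their difference in each setting that gave a value, and 8 changed it in at least 1: Mbp, Mobp, Nfasc, Bcas1, Car2, Qdpr, Gpr17 and Trf. Opalin ranged from -1.89 to -1.19, Fa2h from -1.85 to -1.11, Cldn11 from -1.20 to -0.74 and Pdgfra from 1.01 to 1.51. The count past the adjusted threshold depended on the setting. It was 4 with the deposited table as it stands (Mog, Opalin, Fa2h and Gpr37, all lower), where 0.122% of genes were lower and 1.41% higher. With array weights it was 10, 9 lower and Pdgfra higher, where 4.53% of genes were lower and 6.4% higher. Array weights gave PGC-1αf/f replicate 3 the smallest weight, 0.307, and PGC-1αf/f replicate 2 the highest, 5.28, and their estimation stopped short of its convergence tolerance.

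**Figure D4:**
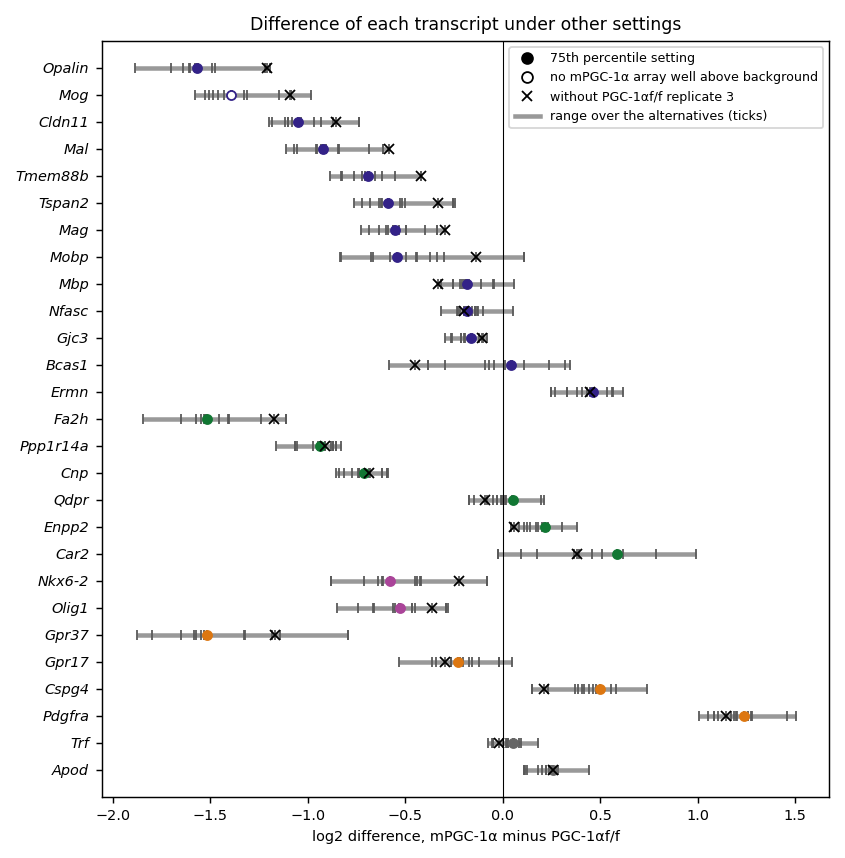
Log2 difference (mPGC-1α minus PGC-1αf/f) of the 27 tested transcripts as reported (coloured points, by role), under up to 19 alternative settings (ticks, with the range as a grey bar) and without PGC-1αf/f replicate 3 (crosses), with an open point for Mog, whose mPGC-1α signals were below the background mark. The bars of Opalin, Mog, Cldn11, Mal, Fa2h, Ppp1r14a, Cnp and Gpr37 lie below 0 and that of Pdgfra above, while those of Mbp, Mobp, Nfasc, Bcas1, Qdpr, Car2, Gpr17 and Trf cross 0.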

How the data were processed

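Total RNA of P2RY12-selected microglia was amplified, labelled with Cy5 and hybridized by the authors to 1-colour Agilent mouse arrays. The deposited scanner files give the processed intensity per spot from Agilent Feature Extraction 11.5.1.1 after background subtraction, with flags. The deposited series table holds the same intensity without normalization between arrays (ratio 0.995 to 1.00 of table to scanner value), and the methods name GeneSpring for normalization. The labels gave the groups and the replicate numbers.

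Control and outlier spots were left out, and log2 intensity was reduced by the 75th percentile (1012 to 2138 intensity units) of the 59305 spots of each array. Spots of a probe were averaged, and a probe counted as well above background where at least 0.5 of its spots were. Of 56605 probes, the 25333 that met this on every array of 1 group or both were fitted with limma 3.58.1 in R 4.3.3 (lmFit and eBayes, two-sided, Benjamini-Hochberg over 25257 p-values), which was first tested on simulated data. Over all probes, 20 passed an adjusted p of 0.05. Accessions were matched to RefSeq symbols for 33767 probes. Where a group had no array above background, a bound was given: the brighter group's mean over a floor for the dim group. Where an array of the brighter group was itself below background, this ratio is not a lower bound. On each dim array the floor was that array's lowest signal well above background, or the probe's own signal if higher. The number of arrays limits the precision.

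Members and lists were chosen with earlier results of these data known, so counts over them are descriptions. Values on every array are given for members with groups that did not overlap, with an unadjusted p under 0.05 or among the 2 largest differences of their role, and for Mbp, Mobp and Enpp2, chosen after their values were seen. Of the further list, the 2 highest and 2 lowest are named, and other named genes were chosen after their values were seen. Marker lists covered microglia, neurons, astrocytes, endothelial cells, mural cells and fibroblasts, choroid plexus, blood leukocytes, border macrophages, erythroid and Schwann cells. Some genes of these lists are not reported here by name.

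The fit was repeated with a median shift, with quantile normalization, with normexp background correction (offset 50), on the deposited table, with no filter and with a filter on all 6 arrays. It was also repeated with the slide column or the replicate number as a block, with eBayes set to trend and robust, with array weights, with the mean over probes, and without each array. Leaving out both arrays numbered 3, and reading the marker lists, role groups and Ppargc1a without PGC-1αf/f replicate 3, were chosen after seeing the data. Tables were made in Python 3.11.15 with numpy 2.4.6 and pandas 2.3.3, and figures with matplotlib 3.10.9.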

Additional observations from a re-analysis of the deposited data

How the results depend on the processing

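The number of listed transcripts past the adjusted threshold was 0 under 17 of 19 alternatives, 4 with the deposited table and 10 with array weights, and it stayed at 0 to 0 when each array was left out. The number at an unadjusted p under 0.05 ranged from 9 to 17 over the arrays left out. The median of -0.53 became -0.19 with the filter on all 6 arrays, -0.37 with a random block for slide column (consensus correlation 0.349), -0.19 with a fixed block, -0.34 with array weights and -0.19 without both arrays numbered 3. It ranged from -0.72 to -0.28 over the arrays left out, with -0.72 without PGC-1αf/f replicate 1, -0.30 without PGC-1αf/f replicate 3, -0.28 without mPGC-1α replicate 2 and -0.30 without mPGC-1α replicate 3. Further oligodendrocyte genes past the threshold numbered 1 with the deposited table, 2 with the random block, 12 with array weights and 0 to 1 over the arrays left out. The median shift moved the median of all genes to -0.11.

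Signs changed as follows. Qdpr was -0.0041 under quantile normalization, -0.081 under the median shift, -0.049 under normexp, -0.0076 and -0.17 with the column as a random and a fixed block, -0.15 with array weights, -0.17 without both arrays numbered 3, and -0.092 to 0.21 over the arrays left out. Trf was -0.054, -0.078, -0.049 and -0.049 under quantile normalization, the median shift, the fixed block and without both arrays numbered 3, and -0.019 to 0.18 over the arrays left out. Bcas1 was -0.089 under the median shift, -0.069 and -0.38 with the blocks, -0.58 with array weights, -0.38 without both arrays numbered 3, -0.043 over the mean of its probes, and -0.45 to 0.34 over the arrays left out. With the fixed block and without both arrays numbered 3, Mobp was 0.11 and Car2 -0.025. Over the mean of probes Mbp was 0.059 and Nfasc 0.051, and Gpr17 ranged from -0.53 to 0.047 over the arrays left out. Without PGC-1αf/f replicate 3 the median was -0.043 for progenitor genes and receptors, -0.076 for neuronal, -0.036 for astrocyte, -0.28 for erythroid and -0.075 for Schwann cell markers. The causes were not tested.

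With the replicate number as a block, 0 transcripts passed the adjusted threshold (smallest adjusted p 0.158) and 11 were at an unadjusted p under 0.05, so no call at the adjusted threshold changed. At the unadjusted threshold Tspan2 left and Mag and, of the further list, Vcan entered. Arrays with the same number had correlated deviations of 0.14, 0.13 and 0.019, and the main fit treated them as unpaired. Replicates 1 and 2 also shared slide columns, with a consensus correlation of 0.349 for the column. These values therefore do not settle the pairing, and the median was -0.37 and -0.19 with the column as a random and a fixed block. With 3 arrays per group, and levels near background for Mog, Opalin, Sox10, Olig2, Ugt8a and Gpr37, differences of dim transcripts are known only loosely.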
